A study of Mus musculus with 157 samples.

Results

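The forkhead transcription factor genes are described here through RNA polymerase II (Pol II) on their start sites and gene bodies while mouse embryonic stem cells were treated with retinoic acid. A gene was a member when its symbol in the deposited tables was Fox, a family letter from A to S and a number, with Foxa2, Foxd3, Foxf1, Foxc2 and Foxl1 left out. This gave 39 of the 23959 genes with a symbol, listed through 50 transcripts. For each of the 7 members with several transcripts, the transcript with the highest mean raw count in a table stood for the gene in that table.

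Forkhead proteins share a winged helix DNA-binding domain but serve very different programs. FOXA proteins open closed chromatin in the endoderm, FOXC, FOXD and FOXF proteins pattern mesoderm and mesenchyme, FOXB proteins act in the developing brain, FOXJ1 drives motile cilia, FOXO proteins are restrained by insulin and AKT signalling, and FOXH1 carries SMAD proteins to Nodal target genes. Retinoic acid acts through nuclear receptors and takes embryonic stem cells out of pluripotency, a state in which many forkhead genes are off or poised.

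All libraries came from wild type E14 cells, an established mouse embryonic stem cell line grown on gelatin with serum and leukemia inhibitory factor. Cells were untreated (0 h) or received 1 uM retinoic acid for 2, 4, 6, 24, 48 or 72 h, and crosslinked chromatin was immunoprecipitated for total Pol II (NTD, by an antibody against its N-terminal domain) or for Pol II phosphorylated at serine 5 (Ser5p, the form near the promoter) or serine 2 (Ser2p, the elongating form) of its C-terminal repeat. Each group held 2 or 3 libraries, in all 17 for NTD and 18 each for Ser5p and Ser2p. Start site values are CPM (counts scaled by library size) in a window of 1 kb on each side of the transcription start site, so they compare between genes, and gene body values are the deposited FPKM, which are per length. The labels do not say whether replicates came from separate cultures, and the p-values hence reflect only how these libraries vary, which may be technical. A member was called when the Benjamini-Hochberg adjusted p of edgeR's quasi-likelihood test, taken over all transcripts of a table, was under 0.05.

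Libraries held 1088159 to 3210580 counts in the start site windows of NTD, 1504737 to 3347830 in those of Ser5p, 11684907 to 25696364 in gene bodies for NTD and 18045745 to 28745658 for Ser2p. The pluripotency genes Pou5f1 and Zfp42 carried a mean of 67.5 and 134.7 CPM of NTD at 0 h, 16.4 and 44.5 CPM at 48 h and 24.2 and 73.2 CPM at 72 h. The mean NTD of the 6 primitive endoderm markers summed to 60.1 CPM at 0 h and 136.9 CPM at 72 h, that of 4 neural markers to 91.0 and 112.7 CPM, that of 4 trophoblast markers to 30.2 and 32.0 CPM and that of 4 fibroblast markers to 28.2 and 31.9 CPM. These sums mix directions. Among neural markers Nes rose from 16.5 to 45.05 CPM, Pax6 from 12.1 to 16.6 and Sox1 from 18.7 to 19.3, while Tubb3 fell from 43.8 to 31.8. Of the endoderm markers Sox17 fell from 8.096 to 6.565 CPM and the others rose. No group mean of these markers was at 0, and their part in the late changes of forkhead genes was not tested. Some libraries stood apart: NTD 0 h replicate 4 and NTD 72 h replicate 3 at the Foxj2 start site, and Ser5p 0 h replicate 4 at many low forkhead start sites, with values given below. In a bulk assay like this, fewer cells with Pol II on a gene and less Pol II per cell cannot be told apart.

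Only 1 member, Foxp1, was called between 6 and 48 h in all 4 tables. It encodes a repressor that takes part in lung, heart and lymphocyte development and whose splice form in stem cells supports pluripotency genes. Its gene spans chr6:98925342-99522746 on the minus strand of GRCm38.p6, and the tables list 3 start sites for it. The innermost, 103 kb from the end of the gene, had the highest counts in the start site tables and stands for Foxp1 there. The middle one lies 238 kb upstream of it. The promoters table of RefSeq (GRCm38.p6) held 26 of the 39 members, 24 of them with a single promoter, and the 250 bases before the inner and middle Foxp1 start sites are shown because these promoters differ in their content of CG dinucleotides, which are in capitals. Both read 5′ to 3′ on the minus strand, from chr6:99028299-99028548 (inner) and chr6:99266516-99266765 (middle).
Foxp1 inner: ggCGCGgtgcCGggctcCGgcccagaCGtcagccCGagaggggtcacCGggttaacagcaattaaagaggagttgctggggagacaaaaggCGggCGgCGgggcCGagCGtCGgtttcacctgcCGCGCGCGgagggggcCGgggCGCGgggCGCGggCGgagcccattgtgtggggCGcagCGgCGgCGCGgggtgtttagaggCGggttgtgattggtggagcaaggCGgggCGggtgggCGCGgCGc
Foxp1 middle: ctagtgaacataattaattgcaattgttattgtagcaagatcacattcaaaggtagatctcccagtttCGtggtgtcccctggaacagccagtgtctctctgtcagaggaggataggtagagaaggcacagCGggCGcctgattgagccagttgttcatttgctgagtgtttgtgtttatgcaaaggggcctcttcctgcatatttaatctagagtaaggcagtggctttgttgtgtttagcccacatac
The inner sequence holds 34 CG dinucleotides at 74.0% G and C, and the middle one 3 at 45.2%. Across all 32851 promoters of the table the median was 6 CG dinucleotides (range 0 to 56).

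Total Pol II at the inner Foxp1 start site was 36.2 and 37.9 CPM at 0 h, 45.4 and 46.5 at 2 h, 60.2, 65.8 and 62.5 at 4 h, 76.1, 76.6 and 55.6 at 6 h, 67.1 and 52.5 at 24 h, 25.9, 36.05 and 24.1 at 48 h, then 16.1 and 23.2 at 72 h. It climbed through the first hours, and all 3 libraries of 48 h lay below all 3 of 6 h. At 6 h it was higher than at 0 h by 0.89 on the log2 scale (standard error, SE, 0.20, adjusted p = 0.0109), in a comparison where 2 of the 37 tested members (Foxp1 and Foxj2) and 0.728% of all transcripts were called. At 48 h it had fallen by 1.22 against 6 h (SE 0.19, adjusted p = 8.85e-06), and at 72 h it was below untreated cells by 0.86 (SE 0.25, adjusted p = 0.0169). That last call was lost in 3 of 17 fits without 1 library (adjusted p up to 0.143, without 72 h replicate 1, where the change was -0.65) and with the authors' scale factors (adjusted p = 0.424).

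Ser5p at the same window was 25.00 and 24.4 CPM at 0 h, 45.8, 63.8 and 48.3 at 2 h, 47.5, 58.5 and 45.1 at 4 h, 58.9, 54.05 and 53.2 at 6 h, 61.5 and 65.7 at 24 h, 26.1, 31.6 and 32.1 at 48 h, then 22.4 and 24.8 at 72 h. Every library from 2 to 24 h lay above both untreated ones, and the 48 h libraries lay between the untreated ones and those of 24 h. The rise was called at 2 h (log2 1.09, SE 0.21, adjusted p = 0.0268), a time at which Foxp1 was the only member called of 39 and 0.0305% of all transcripts were. The call at 2 h was not refitted without single libraries or with other settings, and rests on the same untreated libraries as that at 6 h. The rise was also called at 6 h (log2 1.16, SE 0.21, adjusted p = 0.00963), where 0.0549% of all transcripts and no other member were, and at 24 h (log2 1.36, SE 0.22, adjusted p = 0.00032), where 9 members and 6.73% of all transcripts were. The fall from 6 to 48 h was called as well (log2 -0.88, SE 0.18, adjusted p = 0.000923). Without 1 library in turn, the fall from 6 to 48 h stayed called for both antibodies. Without the untreated replicate 4 of that antibody, the rise at 6 h was of like size and not called (NTD 0.91, adjusted p = 0.394, Ser5p 1.14, adjusted p = 0.387). The Ser5p rise at 24 h stayed called in every such fit (adjusted p up to 0.0316).

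At the other Foxp1 start sites no change was called. Mean NTD at the middle one ranged from 7.08 to 11.1 CPM over the 7 times and at the outer one from 3.81 to 6.24 CPM, against 19.6 to 69.4 CPM at the inner one. For 48 h against 6 h neither was called, with NTD changes of -0.63 (adjusted p = 0.241) and -0.88 (adjusted p = 0.26) and Ser5p changes of -0.43 (adjusted p = 0.372) and 0.06 (adjusted p = 0.958) at the middle and outer site. Whether the start sites differ from each other in their change was not tested.

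**Figure D1:**
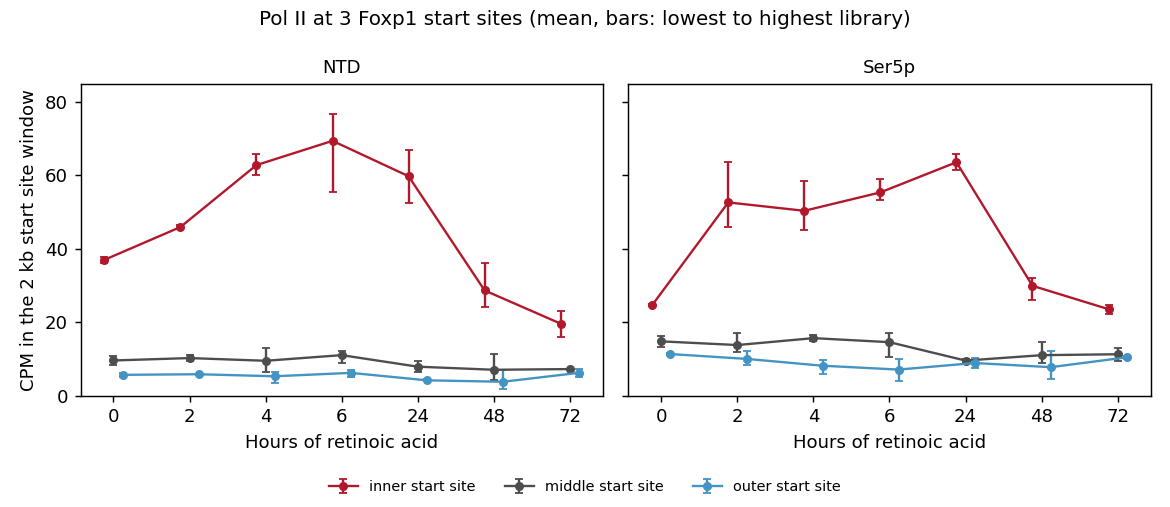
Mean CPM of NTD (left) and Ser5p (right) in the 2 kb windows of the inner, middle and outer Foxp1 start sites against hours of retinoic acid, with bars from the lowest to the highest library. The inner site rises to a mean of 69.4 CPM of NTD at 6 h and is at 28.7 CPM at 48 h, while the other sites stay under 16 CPM.

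The Foxp1 gene body was also lower at 48 h than at 6 h. The NTD FPKM was 0.804 and 0.783 at 0 h, 0.926 and 0.873 at 2 h, 1.02, 1.04 and 0.981 at 4 h, 1.07, 1.11 and 1.00 at 6 h, 1.08 and 0.974 at 24 h, 0.795, 0.804 and 0.789 at 48 h, then 0.844 and 0.855 at 72 h. The 48 h libraries sat below the 6 h libraries without overlap, and differed little among themselves. The Ser2p FPKM was 0.895 and 0.921 at 0 h, 1.01, 1.06 and 0.951 at 2 h, 1.07, 1.05 and 1.05 at 4 h, 1.09, 1.07 and 1.07 at 6 h, 1.13 and 1.03 at 24 h, 0.896, 0.888 and 0.898 at 48 h, then 0.929 and 0.923 at 72 h. Against 6 h, the 48 h value had fallen by 0.39 on the log2 scale for NTD (SE 0.07, adjusted p = 0.00354) and by 0.26 for Ser2p (SE 0.05, adjusted p = 0.00654). These body values cover the gene from its outer start, and the same comparison over the part that begins at the inner start gave -0.94 for NTD (adjusted p = 2e-04) and -0.66 for Ser2p (adjusted p = 0.00138). Over that inner part NTD was already higher at 6 h than at 0 h (log2 0.85, adjusted p = 0.0276).

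Of the other FoxP members, Foxp2, a brain and lung factor, had a higher NTD start site at 48 h than at 6 h, while Foxp3 of regulatory T cells and Foxp4 were called in none of the 4 tables. Foxp2 NTD was 10.8 and 9.97 CPM at 0 h, 6.57 and 5.75 at 2 h, 8.46, 13.7 and 10.2 at 4 h, 6.92, 13.7 and 5.56 at 6 h, 11.3 and 14.2 at 24 h, 16.6, 14.3 and 18.9 at 48 h, then 11.4 and 14.3 at 72 h. The 48 h libraries were above all 6 h libraries, by a small margin over 6 h replicate 3. The log2 change was 0.92 (SE 0.28, adjusted p = 0.0263), and the call was lost in 4 of the 17 fits without 1 library (adjusted p up to 0.254, without 6 h replicate 4), with DESeq2 and with the authors' scale factors. Its Ser5p change was -0.29 (95% interval -0.87 to 0.29).

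In the group listed as mesoderm and mesenchyme, 4 of 6 members were called higher in NTD at the start site between 6 and 48 h and none lower. They were Foxc1, Foxd1, Foxd2 and Foxq1. Foxq1 is better known from the gut and stomach lining and from hair, so the group is not purely one of mesoderm and mesenchyme. With DESeq2, and with the authors' scale factors in edgeR, the calls were 2 of 6 (Foxd2 and Foxq1). The median log2 change of the 6 was 0.89, beside 0.00 for all transcripts tested. Over all members, 5 of 37 were called higher and 2 lower in this comparison, which called 10.1% of all transcripts (3.60% higher, 6.52% lower). The group includes neighbours: Foxq1 lies 64.8 kb from Foxf2 on chromosome 13, and Foxf2 lies 175.2 kb from Foxc1.

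Foxq1, a gene of the gut and stomach lining and of hair, is at chr13:31558170-31560976. Its NTD start site read 9.81 and 8.37 CPM at 0 h, 7.17 and 12.02 at 2 h, 6.97, 10.9 and 9.25 at 4 h, 6.34, 10.1 and 8.52 at 6 h, 6.30 and 13.8 at 24 h, 25.9, 25.9 and 10.3 at 48 h, then 25.5 and 17.4 at 72 h. Up to 6 h no library passed 12.0 CPM, and at 48 h replicates 1 and 2 were high while replicate 3 was just above the highest 6 h library. The change from 6 to 48 h was 1.37 (SE 0.29, adjusted p = 0.000849), and from 0 to 72 h 1.19 (SE 0.34, adjusted p = 0.0186). The first stayed called in every fit without 1 library, and the second was not called without NTD 0 h replicate 4 (adjusted p = 0.172).

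Foxd2, expressed in kidney and facial mesenchyme, is at chr4:114906280-114908898, 15.5 kb from Foxe3. Its NTD start site read 7.75 and 6.38 CPM at 0 h, 10.7 and 5.75 at 2 h, 5.47, 5.15 and 9.25 at 4 h, 5.77, 5.07 and 7.41 at 6 h, 8.10 and 8.87 at 24 h, 22.6, 13.1 and 12.9 at 48 h, then 10.7 and 17.7 at 72 h. The 48 h libraries were all above the 6 h libraries in CPM, replicate 1 most of all. Counts were low, with a mean of 19.7 per library, and 48 h replicate 3 was the shallowest NTD library (1088159 counts). The change from 6 to 48 h was 1.35 (SE 0.31, adjusted p = 0.00194). From 0 to 72 h it was 1.09 (SE 0.36, adjusted p = 0.041), a call lost in 5 of 17 fits without 1 library (adjusted p up to 0.594, without NTD 72 h replicate 3). The antisense gene Foxd2os changed by 1.34 between 6 and 48 h (adjusted p = 0.00134), and since chromatin immunoprecipitation has no strand, Foxd2 and Foxd2os cannot be told apart in these windows.

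Foxc1, a factor of somites, eye and vessels, and Foxd1, a marker of kidney stroma and the optic chiasm, also rose between 6 and 48 h. Foxc1 NTD was 9.81 and 7.97 CPM at 0 h, 5.37 and 7.31 at 2 h, 7.46, 5.72 and 7.86 at 4 h, 6.92, 8.62 and 9.26 at 6 h, 8.10 and 14.5 at 24 h, 10.6, 18.4 and 18.9 at 48 h, then 12.7 and 21.8 at 72 h. Foxd1 NTD was 11.4 and 7.97 CPM at 0 h, 7.76 and 14.6 at 2 h, 7.46, 10.9 and 9.25 at 4 h, 9.22, 7.61 and 9.63 at 6 h, 8.55 and 9.93 at 24 h, 14.6, 15.8 and 18.1 at 48 h, then 14.7 and 17.4 at 72 h. For both, the 48 h libraries lay above the 6 h libraries without overlap. The changes from 6 to 48 h were 0.94 for Foxc1 (SE 0.28, adjusted p = 0.0235) and 0.85 for Foxd1 (SE 0.27, adjusted p = 0.0307). These calls were lost in 5 and 6 of the 17 fits without 1 library, with adjusted p up to 0.158 (without 48 h replicate 2) and 0.116 (without 6 h replicate 3). Foxc1 at 72 h was above 0 h by 1.04 (SE 0.32, adjusted p = 0.0302), and without NTD 72 h replicate 3 the adjusted p was 0.616. Foxf2 of gut mesenchyme changed by 0.31 and Foxs1 of pericytes by -0.57 between 6 and 48 h, both uncalled.

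**Figure D2:**
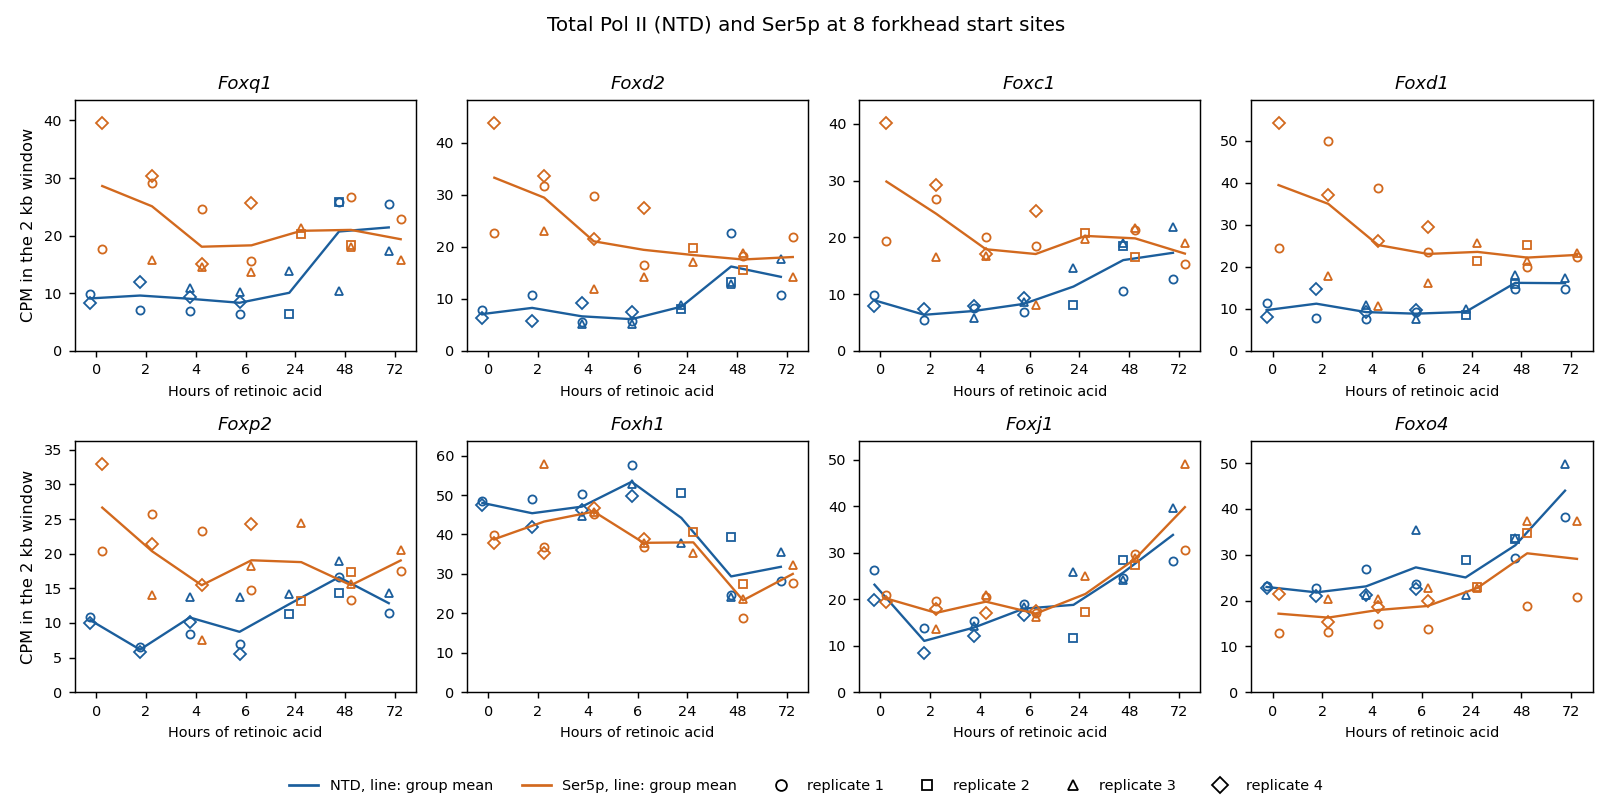
CPM of NTD and Ser5p in the start site window of 8 members against hours of retinoic acid, 1 point per library and lines through group means. NTD of Foxq1 and Foxd2 is higher at 48 h than at 6 h in all libraries, and the fall of Foxh1 between these times is seen with both antibodies.

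Ser5p at these 4 start sites (Foxq1, Foxd2, Foxc1 and Foxd1) was not called between 6 and 48 h, with changes of 0.17 (95% interval -0.39 to 0.74), -0.15 (-0.71 to 0.41), 0.20 (-0.36 to 0.76) and -0.05 (-0.67 to 0.57). The difference between the antibodies, tested as their interaction with time in edgeR, was called for 0 of 39 members at 48 h against 6 h and for 0.00% of all transcripts. At an unadjusted p under 0.05 there were 7 members, and DESeq2 was not run on this test. In simulated data the test found 79 of 200 transcripts changed by 1 on the log2 scale. The changed transcripts all had higher mean counts than these start sites have for NTD (Foxq1 26.1, Foxd2 19.7, Foxc1 22.8, Foxd1 23.5). That share therefore does not apply to them.

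Against untreated cells, 7 members were called at 48 h in NTD start sites, where 9.58% of all transcripts were. Those higher were Foxq1 (log2 1.27, adjusted p = 0.0059), Foxa1 of the endoderm (1.26, adjusted p = 0.0105), Foxd2 (1.18, adjusted p = 0.0158), Foxl2 of the ovary (1.17, adjusted p = 0.0179) and Foxo6 (0.95, adjusted p = 0.0385). Without NTD 0 h replicate 4 none of the 7 was called: Foxq1, Foxa1, Foxd2, Foxl2 and Foxo6 had adjusted p = 0.118, 0.285, 0.2, 0.132 and 0.127, and Foxh1 and Foxj2, the lower ones, 0.198 and 0.931. At 72 h there were 5 of 37 members (4 higher, 1 lower), with 9.13% of all transcripts called (5.66% higher, 3.47% lower). With NTD 0 h replicate 4 and 72 h replicate 3 both left out, 0 members and 2.48% of all transcripts were called. Foxa1 was not called between 6 and 48 h (0.59, 95% interval 0.03 to 1.15), nor was Foxa3, which moved between 9.40 and 19.9 CPM over all libraries.

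Over all transcripts, 3.60% were called higher and 6.52% lower in NTD start sites at 48 h against 6 h. In Ser5p start sites at 72 h against 0 h 3.87% were called lower. Of 12 genes listed as FOXA targets, Foxa2 itself was called higher and Apoa2 lower in NTD start sites at 48 h against 6 h. With Ser5p 5 were called lower at 72 h against 0 h, among them Shh, Cdx2 and Sox17 (list median log2 -0.80, all transcripts -0.04), and without Ser5p 0 h replicate 4 none was called while the median was -0.86.

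Foxh1, the DNA-binding partner of SMAD2 and SMAD3 in Nodal signalling, had one of the fuller start sites of the family in untreated cells and lost Pol II late. The gene is at chr15:76667829-76671614. NTD was 48.6 and 47.4 CPM at 0 h, 48.97 and 41.8 at 2 h, 50.2, 44.6 and 46.3 at 4 h, 57.7, 52.8 and 49.6 at 6 h, 50.4 and 37.96 at 24 h, 24.6, 39.4 and 24.1 at 48 h, then 28.1 and 35.5 at 72 h. Ser5p was 39.8 and 37.8 CPM at 0 h, 36.8, 57.8 and 35.2 at 2 h, 45.2, 45.6 and 46.6 at 4 h, 36.8, 37.9 and 38.9 at 6 h, 40.6 and 35.4 at 24 h, 18.8, 27.5 and 23.6 at 48 h, then 27.8 and 32.2 at 72 h. In both, all 48 h libraries lay below all 6 h libraries, and replicate 2 was the highest of 48 h. NTD fell by 0.79 on the log2 scale between 6 and 48 h (SE 0.19, adjusted p = 0.00344), and stayed called in every fit without 1 library, but not with the authors' scale factors (-0.79, adjusted p = 0.174). Ser5p fell by 0.68 (SE 0.20, adjusted p = 0.0242), with 4 of 39 members called (1 higher, 3 lower) beside 7.02% of all transcripts (3.81% higher, 3.21% lower). That call was lost in 5 of 18 fits without 1 library (adjusted p up to 0.0976, without 48 h replicate 1). Along the gene body the NTD change was -0.77 (95% interval -1.29 to -0.24, adjusted p = 0.0643).

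Among 12 genes of the Nodal pathway and FOXH1 partners, 3 were higher and 2 lower in NTD start sites between 6 and 48 h. Over all transcripts 3.60% were called higher and 6.52% lower. Lefty1, a feedback inhibitor of Nodal, rose by 1.93 (adjusted p = 2.6e-09). The Nodal co-receptor gene Tdgf1 fell by 2.96 on the log2 scale (adjusted p = 7.5e-10). The list's median was -0.09, beside 0.00 for all transcripts, so its members moved both ways.

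Foxm1, which drives genes of mitosis, was called in no table. Its NTD start site ranged from 22.4 to 49.97 CPM with a median of 34.6 CPM over 17 libraries. The change from 6 to 48 h was -0.23 (95% interval -0.64 to 0.19) for NTD and -0.14 (-0.52 to 0.25) for Ser5p. Of 12 FOXM1 target genes, 3 were called lower and 0 higher in NTD start sites between these times, beside 6.52% of all transcripts lower, with a list median of -0.52: Aurkb at -1.16 (adjusted p = 1.2e-05), Cenpa at -0.75 (adjusted p = 0.0074) and Cenpf at -0.63 (adjusted p = 0.028), all genes of chromosome segregation. Without NTD 72 h replicate 3 the count was 5 lower, with Ccnb1 and Kif20a added. For 72 h against 0 h edgeR called 0 of the 12, beside 9.13% of all transcripts, and 0 had an unadjusted p under 0.05.

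In the FoxO group, Foxo4 was higher late, and Foxo1, Foxo3 and Foxo6 were not called at 72 h. The NTD start site of Foxo4, at chrX:101254261-101260873, read 23.2 and 22.7 CPM at 0 h, 22.7 and 20.9 at 2 h, 26.9, 21.2 and 21.3 at 4 h, 23.6, 35.5 and 22.6 at 6 h, 28.8 and 21.3 at 24 h, 29.2, 33.4 and 33.6 at 48 h, then 38.2 and 49.8 at 72 h. Both 72 h libraries were above every untreated one, and replicate 3 was the highest of the 17 libraries for this gene. The change from 0 to 72 h was 0.96 (SE 0.24, adjusted p = 0.0056), and without 72 h replicate 3 it was 0.75 (adjusted p = 0.16). Along the body NTD was 0.885 and 0.863 at 0 h, 0.749 and 0.860 at 2 h, 0.967, 1.19 and 1.07 at 4 h, 1.11, 1.23 and 1.12 at 6 h, 1.28 and 1.06 at 24 h, 1.02, 1.78 and 1.02 at 48 h, then 1.20 and 2.43 at 72 h in FPKM. The body change at 72 h was 1.04 (SE 0.28, adjusted p = 0.0464), a call lost in 13 of 17 fits without 1 library, and without 72 h replicate 3 it was 0.46 (adjusted p = 0.486). Foxo3 was higher at 24 h than at 0 h in Ser5p (log2 1.04, adjusted p = 0.0106) and in Ser2p along the body (0.41, adjusted p = 0.0271), where Foxn1 was lower (-0.41, adjusted p = 0.0233) and 4 members and 13.0% of all transcripts were called. Fits without 1 library lost the Foxo3 Ser5p call in 2 of 18 (adjusted p up to 0.126, without 24 h replicate 3), the Foxo3 Ser2p call in 4 (up to 0.261, without 0 h replicate 4) and the Foxn1 call in 3 (up to 0.248, without 0 h replicate 4).

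At 72 h against 0 h, Ser5p start sites were called higher for 5.09% of all transcripts and lower for 3.87%. Of 12 genes that FOXO proteins are known to activate, edgeR called 6 higher and 0 lower in NTD start sites at 72 h against 0 h, beside 5.66% of all transcripts higher (median log2 0.70, all transcripts -0.04), among them the pro-apoptotic Bcl2l11 (1.02, adjusted p = 0.00086) and catalase, Cat (0.87, adjusted p = 0.0088). The count was 3 without NTD 0 h replicate 4, 1 without NTD 72 h replicate 3 and 0 without both, where the median was 0.49. With Ser5p 6 were higher and 0 lower (median 0.74), and 1 without Ser5p 0 h replicate 4. Of 12 genes listed as acting upstream of FOXO proteins, 3 were higher and 1 lower in NTD start sites between 6 and 48 h. Over all transcripts 3.60% were called higher and 6.52% lower. The insulin receptor substrates Irs1 and Irs2 rose by 1.21 and 0.93 (adjusted p = 0.00071 each), and the third was Pik3r1. The lower gene, Pdk1, encodes a mitochondrial kinase of pyruvate dehydrogenase and does not belong to the insulin pathway, so no upstream gene of FOXO in the list was called lower.

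Foxj1, the switch for motile cilia, at chr11:116330704-116335499, gained Pol II at the late times. Ser5p was 20.8 and 19.5 CPM at 0 h, 19.6, 13.6 and 17.97 at 2 h, 20.5, 20.9 and 17.05 at 4 h, 17.03, 16.2 and 17.6 at 6 h, 17.3 and 25.02 at 24 h, 29.7, 27.5 and 28.8 at 48 h, then 30.6 and 49.1 at 72 h. The 48 and 72 h libraries all lay above every earlier one. The rise from 6 to 48 h was 0.76 (SE 0.21, adjusted p = 0.0227), lost in 5 of 18 fits without 1 library (adjusted p up to 0.0846), and from 0 to 72 h it was 0.98 (SE 0.25, adjusted p = 0.00839), a size that was 0.60 with 72 h replicate 3 left out (adjusted p = 0.393). Along the body the NTD FPKM of Foxj1 was 0.991 and 0.761 at 0 h, 0.584 and 0.860 at 2 h, 0.893, 1.04 and 0.982 at 4 h, 1.18, 1.15 and 1.11 at 6 h, 1.02 and 1.48 at 24 h, 1.16, 1.51 and 1.08 at 48 h, then 1.63 and 2.03 at 72 h. Both 72 h libraries were the highest of the gene, and the change from 0 h was 1.04 (SE 0.21, adjusted p = 0.0124), not called without NTD 0 h replicate 4 (adjusted p = 0.17). Of 12 ciliary genes that FOXJ1 is known to drive, edgeR called 0 in NTD start sites. That was so at 48 h against 6 h and at 72 h against 0 h, with 1 at an unadjusted p under 0.05 each. Over all transcripts 10.1% and 9.13% were called. With Ser5p 1 of the ciliary genes was lower at 72 h against 0 h, Spag6 (-2.24, adjusted p = 0.00013), beside 3.87% of all transcripts.

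Ser5p fell at a set of developmental forkhead start sites against untreated cells, and without 1 untreated library 1 of these falls was called at 72 h and none at 48 h. At 48 h 13 of 39 members were called (2 higher, 11 lower) beside 12.2% of all transcripts (6.84% higher, 5.37% lower). At 72 h 11 were called (2 higher, 9 lower) beside 8.95% of all transcripts (5.09% higher, 3.87% lower). The median change of the 39 members at 72 h was -0.41, against -0.04 for all transcripts. In the ectoderm, placode and ear group 4 of 6 members were lower at 72 h and in the midline, brain and neural group 3 of 5.

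Foxb1, a gene of the mammillary body and midbrain, had Ser5p of 26.8 and 46.9 CPM at 0 h, 35.3, 14.9 and 36.7 at 2 h, 27.9, 12.9 and 23.1 at 4 h, 20.2, 13.6 and 24.2 at 6 h, 16.3 and 13.01 at 24 h, 11.5, 13.3 and 12.8 at 48 h, then 9.27 and 6.33 at 72 h. Foxb2, expressed in the thalamus and neural tube, had 19.9 and 57.3 CPM at 0 h, 43.8, 14.5 and 34.4 at 2 h, 28.4, 8.59 and 15.5 at 4 h, 9.20, 9.09 and 27.1 at 6 h, 10.7 and 17.3 at 24 h, 8.50, 10.1 and 9.45 at 48 h, then 10.4 and 8.97 at 72 h. For both, every 48 and 72 h library was below both untreated ones, and in the untreated pair replicate 4 was far above replicate 1. The changes at 72 h were -2.21 for Foxb1 (SE 0.38, adjusted p = 0.000145) and -1.95 for Foxb2 (SE 0.47, adjusted p = 0.00471). Without Ser5p 0 h replicate 4, Foxb1 stayed called at 72 h and was the only member that did, while Foxb2 changed by -1.04 (adjusted p = 0.334).

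Foxe3, the lens factor, had Ser5p of 18.5 and 46.9 CPM at 0 h, 26.7, 17.4 and 29.2 at 2 h, 26.5, 10.7 and 11.03 at 4 h, 11.96, 17.7 and 27.1 at 6 h, 10.2 and 12.3 at 24 h, 9.10, 10.5 and 7.56 at 48 h, then 9.27 and 6.86 at 72 h. It again read highest in untreated replicate 4, and both 72 h libraries lay below both untreated ones. At 72 h Foxe3 had changed by -1.97 (SE 0.41, adjusted p = 0.00124), and without Ser5p 0 h replicate 4 the change was -1.19 (adjusted p = 0.165).

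Foxf2 had Ser5p of 21.3 and 51.8 CPM at 0 h, 40.3, 16.2 and 42.7 at 2 h, 29.3, 6.44 and 19.6 at 4 h, 14.3, 11.6 and 25.6 at 6 h, 16.3 and 21.3 at 24 h, 11.5, 10.5 and 8.03 at 48 h, then 15.3 and 8.44 at 72 h. Foxl2 had 35.2 and 87.2 CPM at 0 h, 69.01, 28.9 and 53.2 at 2 h, 45.2, 20.4 and 27.6 at 4 h, 22.1, 18.7 and 47.97 at 6 h, 26.9 and 31.02 at 24 h, 16.4, 16.9 and 16.5 at 48 h, then 24.6 and 15.3 at 72 h. The replicates of 0 to 6 h were spread widely, and replicate 3 was the lowest at 2, 4 and 6 h for both genes. The 48 and 72 h libraries all lay below both untreated ones. The untreated group held replicates 1 and 4 but no replicate 3. The changes at 72 h were -1.59 for Foxf2 (SE 0.43, adjusted p = 0.0138) and -1.59 for Foxl2 (SE 0.37, adjusted p = 0.00335). Without Ser5p 0 h replicate 4 they were -0.84 (adjusted p = 0.421) and -0.82 (adjusted p = 0.312).

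Among further members called lower at 72 h, Foxd4 changed by -1.09 (adjusted p = 0.0262), the thyroid factor Foxe1 by -1.39 (adjusted p = 0.0107) and Foxi3, a gene of the ear and branchial arches, by -1.07 (adjusted p = 0.00707). None of these was called without Ser5p 0 h replicate 4.

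The spread in untreated cells can be given for the whole set. At the 11 members called lower at 48 h, Ser5p 0 h replicate 4 read a median of 1.94 times replicate 1 (range 0.95 to 2.88, higher in 10 of 11). The ratio was 1.18 at the other 28 members and 1.00 over 32239 transcripts. Because the 11 members were called against a mean that includes replicate 4, part of their high ratio follows from the choice. For NTD the same 11 members had a ratio of 0.95 between these replicates. Without Ser5p 0 h replicate 4, 1 member was called at 48 h (1 higher, 0 lower, beside 2.57% of all transcripts) and 1 at 72 h (lower, beside 2.40%). Without Ser5p 72 h replicate 3 the count at 72 h was 3 (beside 2.07%). Without replicate 1 of 0 h the falls at 72 h were larger, with Foxb1 at -2.57, Foxb2 at -2.55 and Foxe3 at -2.52 on the log2 scale. Mean Ser5p at markers of other lineages is given beside these values: the 4 trophoblast markers summed to 105.2 CPM at 0 h, 50.01 at 48 h and 47.8 at 72 h, the 6 primitive endoderm markers to 159, 105.2 and 134.1 CPM, and the 4 neural markers to 122, 99.3 and 109.3 CPM. Within these lists Nes, Dab2 and Lama1 rose from 0 to 72 h (25.2 to 38.7, 8.835 to 37.4 and 20.4 to 30.1 CPM), and the other markers fell. The untreated group held replicates 1 and 4, that of 48 h replicates 1, 2 and 3 and that of 72 h replicates 1 and 3. Replicate number and time are hence partly mixed in these falls. Within replicate 1, all 13 members called at 48 h and all 11 at 72 h changed in the called direction. The replicate 1 libraries were part of the fit that made these calls, so this is not separate evidence. The part of Ser5p 0 h replicate 4 and of these markers in the falls was not tested further.

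**Figure D3:**
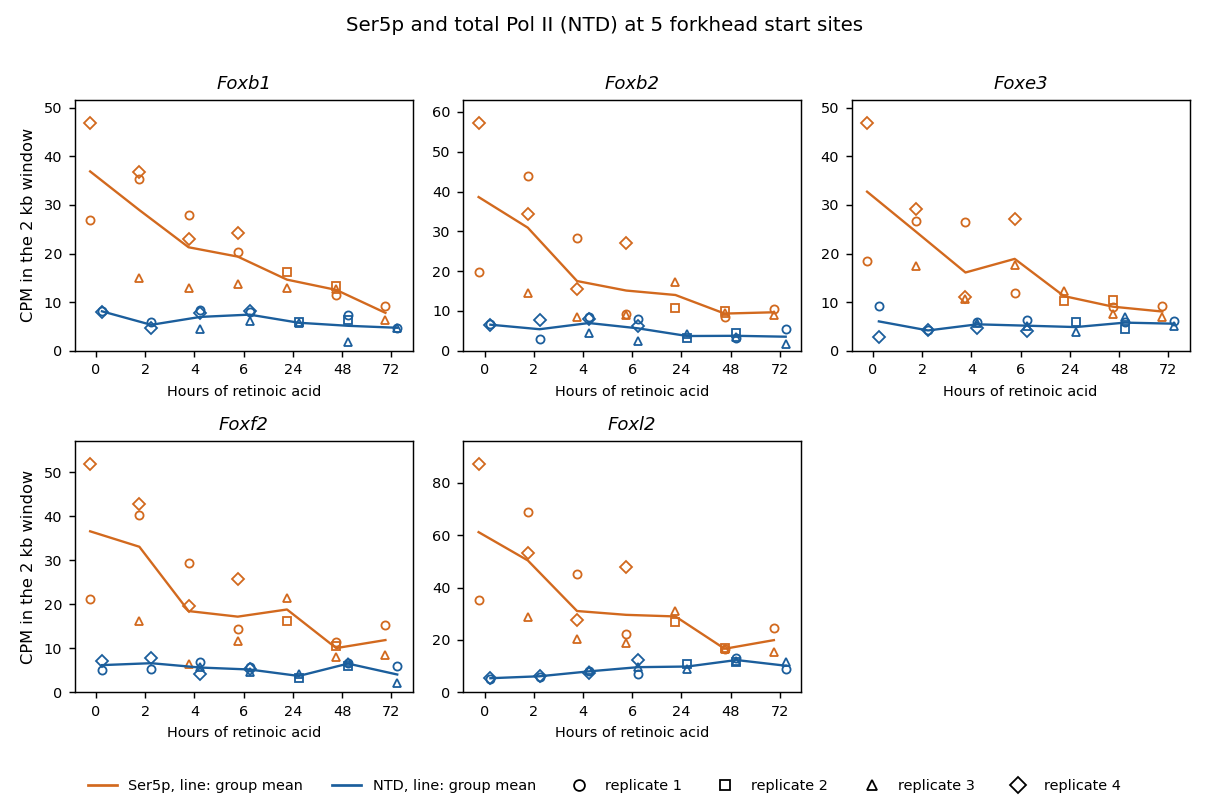
CPM of Ser5p and NTD in the start site window of 5 members against hours of retinoic acid, 1 point per library and lines through group means. Ser5p of untreated replicate 4 (diamonds at 0 h) is the highest point of all 5 panels, while NTD stays under 14 CPM.

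Ser5p and NTD moved in opposite directions at Foxl2 and Foxd2 between 0 and 48 h. Foxl2 NTD was 5.16 and 5.58 CPM at 0 h, 5.97 and 6.27 at 2 h, 7.96, 8.58 and 7.40 at 4 h, 6.92, 9.64 and 12.2 at 6 h, 10.8 and 8.87 at 24 h, 13.3, 11.6 and 12.05 at 48 h, then 8.71 and 11.6 at 72 h, so its 48 h libraries were all above the untreated ones, while its Ser5p was lower. Foxd2 Ser5p was 22.7 and 43.9 CPM at 0 h, 31.7, 22.97 and 33.7 at 2 h, 29.8, 11.8 and 21.6 at 4 h, 16.6, 14.1 and 27.5 at 6 h, 19.8 and 17.01 at 24 h, 18.2, 15.6 and 18.9 at 48 h, then 21.8 and 14.2 at 72 h. Untreated replicate 4 was again above replicate 1. The interaction, Ser5p change minus NTD change, was -3.07 for Foxl2 (SE 0.57, adjusted p = 0.00689) and -2.13 for Foxd2 (SE 0.48, adjusted p = 0.0288). These were the 2 members called of 39, beside 0.399% of all transcripts. At 72 h 0 of 39 members were called in edgeR (13 at an unadjusted p under 0.05, lowest adjusted p = 0.057), with 0.0884% of all transcripts. Without Ser5p 0 h replicate 4 neither was called (Foxl2 -2.30, adjusted p = 0.414, Foxd2 -1.60, adjusted p = 0.619), and without NTD 0 h replicate 4 neither was (adjusted p = 0.199 and 0.38). Without strand, the signal of Foxl2 and Foxd2 was not separated from that of their antisense neighbours Foxl2os and Foxd2os. The 250 bases before these start sites are shown for comparison with Foxp1, CG dinucleotides again in capitals, from chr9:98955357-98955606 on the plus strand (Foxl2) and chr4:114908899-114909148 on the minus strand (Foxd2).
Foxl2: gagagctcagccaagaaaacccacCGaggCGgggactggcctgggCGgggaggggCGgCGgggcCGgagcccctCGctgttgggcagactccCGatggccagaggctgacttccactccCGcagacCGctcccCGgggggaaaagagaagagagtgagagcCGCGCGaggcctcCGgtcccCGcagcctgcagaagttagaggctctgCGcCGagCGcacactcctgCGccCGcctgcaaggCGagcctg
Foxd2: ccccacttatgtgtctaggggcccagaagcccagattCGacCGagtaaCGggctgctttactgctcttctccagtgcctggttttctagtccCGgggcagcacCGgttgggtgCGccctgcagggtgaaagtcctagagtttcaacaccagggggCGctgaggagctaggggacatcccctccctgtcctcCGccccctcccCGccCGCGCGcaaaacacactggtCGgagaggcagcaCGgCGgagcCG
They hold 22 and 16 CG dinucleotides. The members with a single promoter in the table had a median of 17.5 (24 promoters, range 3 to 48), those lower in Ser5p at 48 h a median of 16 (7 promoters) and those higher in NTD at 48 or 72 h a median of 21 (5 promoters). The other 14 members with a single promoter had a median of 17.5, and some of them, such as Foxj3 and Foxn4, were called in other comparisons. Foxl2 and Foxd2 are in both called sets. With so few promoters, a difference between the sets was not tested.

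Single 6-base motifs of retinoic acid receptors were searched in the same 250 bases on both strands. The letters AGGTCA were in 4 of 29 member promoters (Foxe3, Foxi2, Foxk2, Foxp3) and in 14% of all promoters, and AGTTCA in 2 (Foxc1, Foxd1) and in 11.8%. These are single motifs: either one as a direct repeat with a spacer of 5 bases was in 0 of 29 member promoters and in 0.00913% and 0.0213% of all. The forkhead site TGTTTAC was in that of Foxa1 and in 3.17% of all, and TATAAA in those of Foxa3 and Foxp3 and in 12.4% of all.

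Along gene bodies the members' counts were near the background. Between 6 and 48 h 3 of 39 were called for NTD (2 higher, 1 lower) beside 9.76% of all transcripts (3.77% higher, 6.00% lower), and without NTD 48 h replicate 2 it was 9 (2 higher, 7 lower) beside 18% of all transcripts. For Ser2p 3 were (1 higher, 2 lower) beside 5.43% (2.42% higher, 3.01% lower). Median changes of the members were 0.01 in both tables, beside 0.04 and 0.00 for all transcripts.

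Foxq1 rose along its body as at its start site. Its NTD FPKM was 0.882 and 1.20 at 0 h, 1.02 and 1.50 at 2 h, 1.03, 0.982 and 1.23 at 4 h, 1.01, 1.05 and 1.33 at 6 h, 1.04 and 2.13 at 24 h, 1.95, 2.97 and 1.49 at 48 h, then 2.20 and 1.93 at 72 h. All 48 h libraries exceeded all 6 h libraries, replicate 2 most. The change was 0.96 (SE 0.28, adjusted p = 0.0407), lost in 8 of 17 fits without 1 library (adjusted p up to 0.136), and Ser2p changed by 0.37 (95% interval 0.05 to 0.70).

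Foxn4, which sets cell fates in retina and spinal cord, at chr5:114254164-114274418, had lower Ser2p late. Its mean over all libraries, 0.841 FPKM, lay within the members' range of 0.514 (Foxp3) to 1.86 (Foxh1). Foxi1 and Foxn1, the members with the lowest NTD start sites, had 0.559 and 0.764 FPKM. No input level was set beside these values, so their height above background was not tested. The Ser2p FPKM was 0.702 and 0.828 at 0 h, 0.857, 0.976 and 0.919 at 2 h, 0.957, 0.908 and 0.856 at 4 h, 1.08, 0.964 and 0.976 at 6 h, 0.861 and 0.896 at 24 h, 0.728, 0.744 and 0.658 at 48 h, then 0.578 and 0.658 at 72 h. The 48 h libraries lay below the 6 h libraries without overlap. The change was -0.49 (SE 0.09, adjusted p = 0.00428) and stayed called in every fit without 1 library, and NTD along the body changed by -0.37 (95% interval -0.64 to -0.10). At 24 h against 0 h its start site was called higher with both antibodies (NTD 0.97, adjusted p = 0.0154, Ser5p 1.09, adjusted p = 0.0142), at a time when 1.52% and 6.73% of all transcripts were called. The NTD call was lost with DESeq2 (adjusted p = 0.0548) and in 4 of 17 fits without 1 library (adjusted p up to 0.16, without 0 h replicate 4), and the Ser5p call in 2 of 18 (up to 0.238, without 24 h replicate 3).

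**Figure D4:**
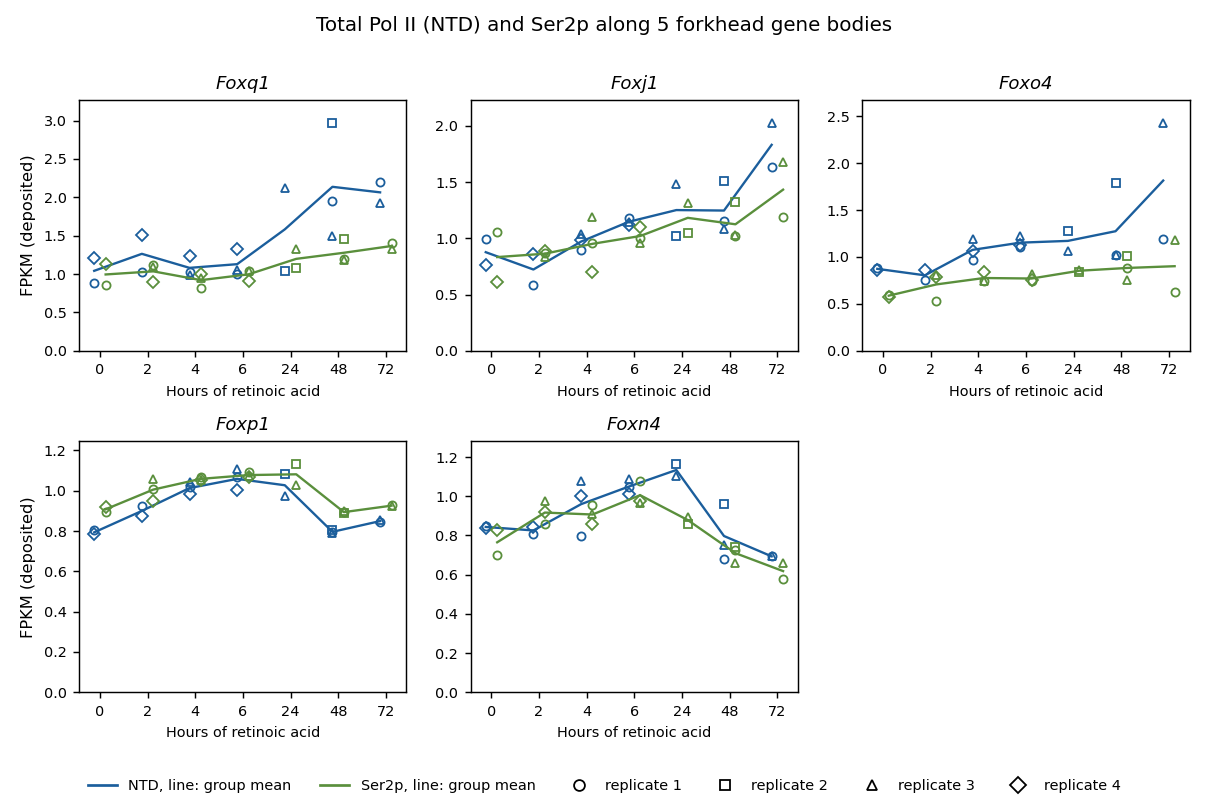
Deposited FPKM of NTD and Ser2p along the bodies of 5 members against hours of retinoic acid, 1 point per library and lines through group means. Foxq1 NTD is at 1.49 to 2.97 FPKM at 48 h, above all 6 h libraries, and the group means of Foxp1 and Foxn4 are lower at 48 h than at 6 h with both antibodies.

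At 72 h against 0 h 3 of 39 members were called along bodies for NTD (all higher, Foxj1 and Foxo4 among them, beside 4.52% of all transcripts in either direction and 2.87% higher) and 0 for Ser2p, where edgeR had 9 at an unadjusted p under 0.05, DESeq2 called 0 and 1.62% of all transcripts were called. Whether Ser2p changed otherwise than NTD between 6 and 48 h was called for 0 of 39 members in edgeR (0 also at an unadjusted p under 0.05, beside 0.00931% of all transcripts, DESeq2 not run). The ratio of body to start site NTD, tested with limma between the same times, was called for 0 of 37 members (6 at an unadjusted p under 0.05, lowest adjusted p = 0.13, beside 0.0651% of all transcripts, with no other tool run). In simulated data that test found 0 of 200 transcripts changed by 1 and 200 of 200 changed by 2 on the log2 scale. These changed transcripts were drawn from those with higher counts than many members have.

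The calls of Foxj2 and Foxr2 were lost without a single library. Foxj2, a broadly expressed factor, had NTD of 12.4 and 82.9 CPM at 0 h, 13.1 and 12.02 at 2 h, 12.9, 8.58 and 9.25 at 4 h, 9.80, 12.2 and 9.26 at 6 h, 10.4 and 14.2 at 24 h, 15.3, 11.6 and 15.5 at 48 h, then 9.38 and 72.3 at 72 h. Only 0 h replicate 4 and 72 h replicate 3 were high, and their partners read like all other libraries. Falls against 0 h were called at 2, 4, 6, 24 and 48 h (log2 -2.24, SE 0.42, adjusted p = 0.000912 at 6 h), and it was the only member called at 2 h (0.320% of all transcripts) and 4 h (0.709%). Without 0 h replicate 4 the change at 6 h was -0.28 (adjusted p = 0.943). Foxr2, a germline and cancer gene on the X chromosome, had Ser5p of 11.6 and 5.49 CPM at 0 h, 9.57, 11.9 and 5.62 at 2 h, 12.1, 9.66 and 10.03 at 4 h, 12.9, 18.2 and 7.12 at 6 h, 5.08 and 9.01 at 24 h, 4.25, 5.04 and 4.73 at 48 h, then 7.09 and 10.03 at 72 h. The 48 h libraries were the lowest of all, and the change from 6 h was -1.42 (SE 0.36, adjusted p = 0.0104), but -1.08 with 6 h replicate 3 left out (adjusted p = 0.114).

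Foxj3, a broadly expressed factor with the fullest start site of the family, had Ser5p of 54.2 and 48.8 CPM at 0 h, 70.02, 59.97 and 68.5 at 2 h, 52.2, 71.9 and 58.7 at 4 h, 63.97, 84.9 and 73.6 at 6 h, 83.3 and 111 at 24 h, 103, 105 and 88.4 at 48 h, then 87.8 and 101 at 72 h. Libraries of 24 h and later were above both untreated ones. The changes from 0 h were 0.94 at 48 h (SE 0.22, adjusted p = 0.00274) and 0.87 at 72 h (SE 0.23, adjusted p = 0.0115), not called without Ser5p 0 h replicate 4 (adjusted p = 0.0859 and 0.159), and at 72 h also not without 72 h replicate 3 (adjusted p = 0.134). NTD there changed by 0.31 at 72 h (95% interval -0.09 to 0.71).

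The start site levels differed widely between members. By mean NTD over 17 libraries Foxj3 was first at 93.3 CPM, then Foxn2 at 66.5, Foxp1 at 47.5, Foxo3 at 43.1, Foxh1 at 42.8 and Foxm1 at 35.3 CPM, and by Ser5p Foxj3, Foxn2, Foxo3, Foxp1 and Foxh1 led with 77.1, 58.1, 46.4, 43.8 and 36.9 CPM. Over the NTD libraries, Foxo3 (27.4 to 54.1 CPM), Foxh1 (24.1 to 57.7 CPM) and Foxp1 (16.1 to 76.6 CPM) overlapped. Foxi1 of the inner ear and Foxn1 of the thymus were lowest, at 2.63 and 3.45 CPM of NTD, and were left out of the NTD start site test by the filter on low counts.

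In all, 13 members were called in no table at any time: Foxa3, Foxi1, Foxi2, Foxk1, Foxk2, Foxm1, Foxn2, Foxn3, Foxo1, Foxp3, Foxp4, Foxr1 and Foxs1. Among them Foxn2 had the fullest NTD start site, between 43.9 and 80.8 CPM (median 70.0). Foxk1, Foxk2, Foxo1 and Foxp4 ranged from 13.9 to 31.5, 15.4 to 31.1, 17.4 to 31.8 and 12.4 to 32.7 CPM. Foxa3 ranged from 9.40 to 19.9 CPM. Foxi2, Foxn3, Foxp3, Foxr1 and Foxs1 were low, from 4.45 to 10.4, 3.00 to 9.16, 1.72 to 10.4, 5.72 to 12.9 and 1.42 to 8.46 CPM. In edgeR's joint F test over the 6 changes from 0 h, which does not call every member that a single contrast does, 12 of 37 members were called in NTD start sites and 15 of 39 in Ser5p start sites, beside 14.9% and 14.5% of all transcripts, and 4 and 2 of 39 in bodies of NTD and Ser2p, beside 7.81% and 7.53%.

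**Figure D5:**
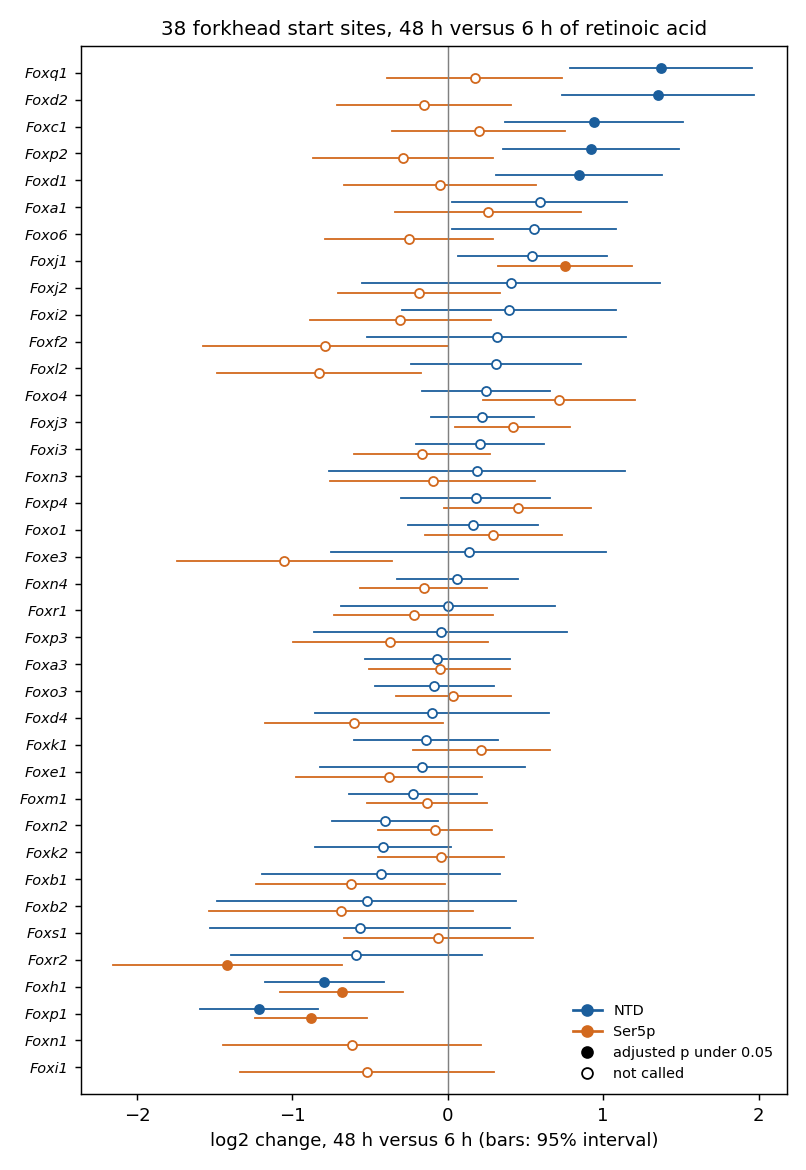
log2 change between 6 and 48 h of NTD and Ser5p at the start sites of 38 members, with 95% intervals, filled points being called. Foxq1 and Foxd2 lead the NTD rises at 1.37 and 1.35 and Foxp1 the falls at -1.22, while Foxi1 and Foxn1 have no NTD value.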

How the data were processed

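Pol II ChIP-seq tables for NTD, Ser5p and Ser2p were analysed, 53 of the 157 samples in the labels. The authors deposited whole-number counts per RefSeq transcript, in windows of 1 kb on each side of the start site and over gene bodies. The deposited normalized signal was found to equal the count times 1 factor per library, and those factors served as an alternative scaling. The deposited FPKM were used for levels along bodies, and their denominators are not stated. Per the submitters' processing notes, Bowtie2, SAMtools, MACS2 and DESeq2 were used with builds mm10 and dm6, and the counting tool is not given in the sources used here. Another 14 deposited columns of group means were not used. Transcripts without a symbol (0.0166% to 0.0761% of counts) stayed in the tests and in the shares of all transcripts. They were left out only of the number of genes.

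Counts were tested in R 4.3.3 with edgeR 4.0.16 (TMM, filterByExpr, quasi-likelihood test, all times of an antibody in 1 fit, Benjamini-Hochberg adjustment over all transcripts of a table). The contrast of antibodies was an interaction in the same kind of fit. The body to start site ratio was tested with limma 3.58.1 on log2 CPM, here scaled by library size alone, with a pseudocount of 0.5. DESeq2 1.42.0, other scalings, no filter, the replicate number as a block, other transcripts and leaving out libraries were alternatives. The tests were tested on simulated data. Python 3.11.15 with matplotlib 3.10.9 drew the figures. No library pair held identical values, and counts of replicates differed by more than sampling noise (chi-square per degree of freedom of at least 1.29).

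The members and the gene lists were chosen with earlier results of these data known. Values in every library are given for up to 6 members with the largest rise and 6 with the largest fall among those called at 48 h against 6 h or 72 h against 0 h, per table, and for those called at 6 h against 0 h. Members called at no time are named with their ranges, others by counts, and listed genes of related pathways by counts with up to 3 examples. Of the genes tested, 1 member and 1 gene of the Nodal list are included in the counts and not reported here.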

Additional observations from a re-analysis of the deposited data

Results flagged for a closer look

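For 2 members the change of Ser5p at the start site differed from that of NTD between 0 and 48 h by an edgeR test of the difference itself. The difference of changes, Ser5p minus NTD, was -3.07 on the log2 scale for Foxl2 (SE 0.57, adjusted p = 0.00689) and -2.13 for Foxd2 (SE 0.48, adjusted p = 0.0288). Ser5p was lower and NTD higher at 48 h for both genes. Ser5p 0 h replicate 4 read above replicate 1 at Foxl2 (87.2 against 35.2 CPM), and without it neither difference was called, as was the case without NTD 0 h replicate 4.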

How the results depend on the processing

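Counts over all transcripts also moved with the settings. In NTD start sites at 48 h against 6 h, 1148 transcripts were called higher and 2077 lower in the main fit. With the authors' scale factors these were 404 and 537. For most alternatives below the share over all transcripts is not given, so their counts do not speak for the members alone. The count of members called in NTD start sites was 7 at 48 h against 6 h, and 3 with the authors' scale factors, 4 with DESeq2 and 4 to 7 without 1 library. At 72 h against 0 h it was 5, and 3 with the authors' factors, 2 with DESeq2, 0 without NTD 0 h replicate 4 and 72 h replicate 3 together, and 2 to 5 without 1 library. Over any time it was 12, and 9 to 12 without 1 library. In Ser5p start sites it was 13 at 48 h against 0 h, and 8 with DESeq2 and 1 to 13 without 1 library. At 48 h against 6 h it was 4, and 2 with the authors' factors and 1 to 6 without 1 library. At 72 h against 0 h it was 11, and 7 with DESeq2 and 1 to 13 without 1 library, and over any time 15, and 14 to 18.

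For NTD along bodies the count was 3 at 48 h against 6 h, and 5 without both NTD libraries and 2 to 9 without 1. At 72 h against 0 h it was 3, and 0 without both and 0 to 7 without 1, and over any time 4, and 2 without both and 3 to 8 without 1. For Ser2p along bodies it was 3, 0 and 2 at 48 h against 6 h, 72 h against 0 h and any time, and 2 to 4, 0 to 2 and 2 to 4 without 1 library, with 4 by DESeq2 over any time. The antibody difference at start sites at 48 h against 0 h was called for 2 members, and for 0 without both NTD libraries and 0 to 9 without 1. At 72 h against 0 h it was called for 0, and for 1 with the authors' factors, 1 with no filter and 0 to 6 without 1 library. Differences at 48 h against 6 h stayed at 0 in both kinds of table, and the body to start site ratio at 0 to 1.

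Same-numbered libraries deviated together more often than others in all 4 tables, though not throughout (median r 0.107, 0.0957, 0.192 and 0.0582, against -0.0467, -0.0345, -0.105 and -0.0137 for other pairs). In NTD bodies 26 of 32 same-numbered pairs and 24 of 91 others had r over 0.1. At start sites these were 18 of 32 and 15 of 91 for NTD, and 18 of 37 and 21 of 101 for Ser5p. In Ser2p bodies they were 17 of 37 and 33 of 101. The labels state no pairing, and the numbers were not taken as pairs in the main fits. These correlations cannot exclude an effect shared by libraries of the same number, least of all in NTD bodies. With the replicate number as a block, the count was 8 in NTD bodies and 5 in Ser2p bodies at 48 h against 6 h, 8 in Ser5p start sites at 48 h against 0 h, and 5 and 3 for the antibody difference at 48 and 72 h against 0 h. The shares of all transcripts called with the block are not given here.

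Directions turned for Foxj2 NTD without NTD 0 h replicate 4 (fits without 1 library gave -2.695 to 0.0169 at 24 h and -2.568 to 0.167 at 48 h against 0 h), and without both NTD libraries to 0.0183 and 0.164. They also turned for Foxp1 with the transcript of lowest count, to 0.0874 (NTD, 72 h against 0 h), -0.372 (Ser5p, 24 h against 0 h), -0.654 (Ser5p, 6 h against 0 h) and 0.0606 (Ser5p, 48 h against 6 h). That transcript has another start site, and the cause of the other moves was not tested. The authors' factors shifted the median of all transcripts by 0.174 to 0.295 at start sites for 6, 48 and 72 h against 0 h. The share of called transcripts that were higher moved from 62% to 87.6% (NTD) and 56.8% to 69.7% (Ser5p) at 72 h, and from 48.7% to 76.6% and 56% to 79.5% at 48 h against 0 h. DESeq2 was not run for the antibody differences or the ratio. Alternatives for 48 h against 0 h and for the antibody difference at 72 h were chosen after seeing the data.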
